A study of Mus musculus with 4 samples.

Results

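The genes described here encode 6 laminin chains (Lama5, Lama3, Lamb1, Lamb2, Lamb3 and Lamc1) and 3 integrin subunits (Itga6, Itgb4 and Itgb1). They were taken by symbol from a table of 18436 genes measured by RNA sequencing in sorted Lgr5-GFP-high cells, the GFP-brightest crypt cells, and all 9 were listed. Both genotypes carried the Lgr5-EGFP-IRES-creERT2 allele on a C57BL/6 background, in which the Lgr5 locus drives both the fluorescent marker and the tamoxifen-activated Cre, so that recombination is limited to Lgr5-expressing cells and their descendants. The 2 Lgr5-CREPT KO mice in addition carried CREPT fl/fl, with loxP sites around exon 3 of Rprd1b, the gene for CREPT, and the 2 Lgr5-CREPT WT mice did not (KO and WT below). Tamoxifen was injected in both genotypes (1 mg daily, 5 injections), cells were collected at day 7, and by the study's methods mice of either sex aged 6 to 8 weeks were used. The sex of each mouse and any pooling of animals were not given in the sources used here.

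Laminins are cross-shaped trimers of 1 α, 1 β and 1 γ chain that are secreted into the basement membrane beneath the intestinal epithelium. Chains of the α kind carry the globular domains to which cell-surface receptors bind, and secretion of a trimer depends on an α chain. Integrin α6 pairs with β1 or with β4, and the α6β4 pair links laminin to the keratin cytoskeleton, whereas β1 integrins link it to actin.

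The question addressed is whether these genes differ between Lgr5-CREPT KO and WT cells. The set was chosen by the FPKM of Lama5 in these same mice, which was already known to be higher in KO cells, and its relatives were added to it. The differences between genotypes of the 9 genes are therefore given as a description, with no test. Values are FPKM, fragments scaled by transcript length and by library size, so levels of different genes can be set side by side. Log2 fold changes are differences of mean log2(FPKM + 0.5), Lgr5-CREPT KO minus Lgr5-CREPT WT, which understate the change of low genes. Their standard errors come from limma and are moderated with the variance of other genes. They are therefore not the spread of each gene's own values alone. Genes with a mean below 0.5 FPKM over the 4 mice were left out of fold changes, which left 12621 genes, 7 of the 9 among them. Lama3 and Lamb1 did not pass.

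Rprd1b was 17.69 and 18.09 FPKM in the WT mice and 6.65 and 7.36 FPKM in KO mice. It fell by 1.29 on the log2 scale (limma's moderated test with Benjamini-Hochberg adjustment, adjusted p = 0.0280). FPKM summed to between 468830 and 499327 per mouse. From genes of small RNAs, whose lowest values rise in steps of 1 fragment, a library held an estimated 17900000 to 18800000 mapped fragments. Over all genes tested, 16 were higher and 128 lower in KO cells (limma's moderated test, with limits of 0.05 on adjusted p and 1 on the size of the log2 difference), and the median log2 fold change was -0.01. Epithelial genes such as Epcam (665.45 to 739.75 FPKM over the 4 mice) and the stem cell gene Olfm4 (4931.99 to 5350.90 FPKM) were abundant. Lgr5, whose locus drives the marker used for sorting, was 37.70 to 60.10 FPKM. Genes of other epithelial cells were present too, such as the goblet cell gene Tff3 (300.36 to 936.55 FPKM), so these levels do not show how pure the sort was.

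Promoter windows of 5 of the 9 genes were taken from RefSeq (GRCm38.p6), each of 300 bases from 250 before to 50 after a start site. The other genes were left out of this part, which does not mean that they lack a promoter sequence there. The windows of Lama5, which differed most between genotypes, of Lamb2, which differed next most, and of Itgb1, which differed least, are shown 5′ to 3′ on the strand of the gene. Capitals mark GC boxes (GGGCGG) and TCF/LEF-like motifs (CTTTGNT) on either strand. They lie at chr2:180225810-180226109 (Lama5, minus strand), chr9:108479612-108479911 (Lamb2, plus strand) and chr8:128685404-128685703 (Itgb1, plus strand).
Lama5: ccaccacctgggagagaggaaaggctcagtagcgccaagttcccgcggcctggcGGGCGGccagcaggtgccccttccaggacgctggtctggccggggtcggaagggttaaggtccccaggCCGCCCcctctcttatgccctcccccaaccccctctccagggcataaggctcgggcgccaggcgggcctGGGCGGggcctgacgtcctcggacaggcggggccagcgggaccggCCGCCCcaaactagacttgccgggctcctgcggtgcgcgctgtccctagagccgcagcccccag
Lamb2: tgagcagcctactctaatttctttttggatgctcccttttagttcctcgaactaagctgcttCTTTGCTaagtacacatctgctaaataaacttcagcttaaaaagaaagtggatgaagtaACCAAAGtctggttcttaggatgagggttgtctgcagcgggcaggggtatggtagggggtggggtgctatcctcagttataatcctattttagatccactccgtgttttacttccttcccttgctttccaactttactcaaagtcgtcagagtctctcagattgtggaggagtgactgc
Itgb1: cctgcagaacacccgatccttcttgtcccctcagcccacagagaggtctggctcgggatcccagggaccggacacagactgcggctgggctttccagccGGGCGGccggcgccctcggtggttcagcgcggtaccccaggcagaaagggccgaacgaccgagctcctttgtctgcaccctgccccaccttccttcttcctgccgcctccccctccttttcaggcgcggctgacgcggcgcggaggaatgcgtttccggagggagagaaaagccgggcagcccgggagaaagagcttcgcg
The Lama5 window held 4 GC boxes, 0 TCF/LEF-like motifs and 24 CG dinucleotides. The Lamb2 window held 0 GC boxes, 2 TCF/LEF-like motifs and 4 CG dinucleotides, and the Itgb1 window 1, 0 and 27. The 3 windows held 0 copies of the TATA box (TATAAA). Of 32851 promoter windows of this length, 35.7% held a GC box, 18.6% a TCF/LEF-like motif and 13.6% a TATA box, and the median number of CG dinucleotides was 7.

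Lama5, which encodes the laminin α5 chain of the adult epithelial basement membrane, lies on the minus strand of chromosome 2 between 180176373 and 180225904 (GRCm38.p6), and its longest coding transcript has 79 exons and 11388 bases. It was 1.22 and 1.10 FPKM in the WT mice and 3.47 and 4.85 FPKM in the KO mice. Both KO values were thus well above both WT values, and the KO mice were also further apart from each other. The means were 1.16 ± 0.0849 FPKM and 4.16 ± 0.976 FPKM (SD, n = 2 each), a ratio of 3.59 and a log2 fold change of 1.47 (standard error 0.20). At the estimated depth these values correspond to about 258 and 234 fragments in WT mice and 741 and 986 in KO mice, so the length of the transcript gives the gene a usable number of reads at a low FPKM. RefSeq places the non-coding gene Gm52542 across the Lama5 start, and whether the libraries kept strand was not given in the sources used here.

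The other α chains with values were close to the limit of the measurement. Lama2, a further α chain gene, was absent from the genes measured and is in none of the α chain sums. Lama3, the α chain of laminins in epithelial anchoring structures, was 0.03 and 0.08 FPKM in the WT mice and 0.02 and 0.04 FPKM in the KO mice, at most about 16 fragments in a library. No difference in Lama3 was detectable at this depth. Lama4, a chain of vessel and mesenchymal basement membranes, was 0.22 and 0.38 FPKM in WT mice and 0.04 and 0.09 FPKM in KO mice, and Lama1 was at most 0.02 FPKM in any mouse. Lama5 made up 82.4% and 70.5% of the summed α chain FPKM in the WT mice and 97.7% and 97.2% in the KO mice.

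Among β chains the order was the same in both genotypes. Lamb3, a β chain that pairs with α3, was highest at 12.94 and 14.39 FPKM in WT mice and 15.75 and 19.94 FPKM in KO mice. The groups did not overlap, but the gap between them was smaller than the gap between the KO mice. Its log2 fold change was 0.37 (standard error 0.14). Lamb2, which pairs with α5 and γ1, was 3 and 2.91 FPKM in WT mice and 5.34 and 6.01 FPKM in KO mice. The difference between genotypes was several times that between mice of a genotype, a ratio of 1.92 and a log2 fold change of 0.84 (standard error 0.13). Lamb1, the β chain of the laminins of most embryonic and many adult tissues, stayed between 0.10 and 0.12 FPKM in all 4 mice, about 11 to 13 fragments.

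Lamc1, the γ chain shared by most laminins, was 4.77 and 3.85 FPKM in WT mice and 6.24 and 7.11 FPKM in KO mice. Both KO mice were above both WT mice, with a log2 fold change of 0.58 (standard error 0.15).

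**Figure D1:**
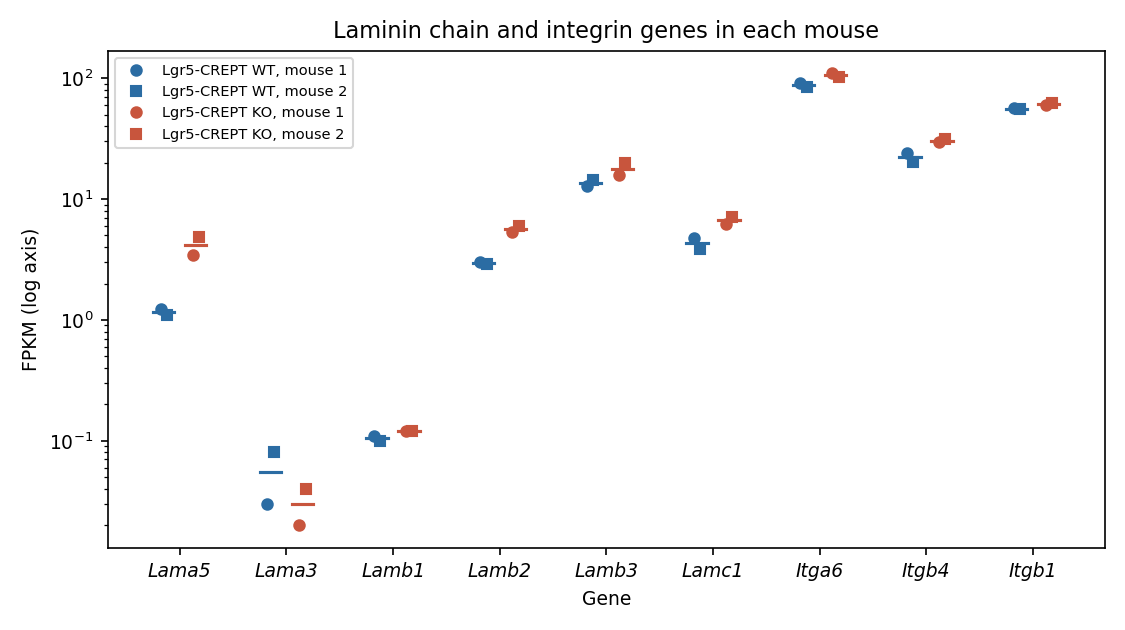
FPKM (log axis) of the 9 genes in each of the 4 mice, with a short line at the mean of each genotype. Lama5 has the widest gap between genotypes, from 1.16 to 4.16 FPKM on average, while Lama3 and Lamb1 lie at or below 0.12 FPKM in every mouse.

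Summed over genes, the α chains were scarcer than the β chains in every mouse. They came to 1.48 and 1.56 FPKM in WT mice and 3.55 and 4.99 FPKM in KO mice, a ratio of means of 2.81. The β chains came to 16.05 and 17.40 FPKM in WT mice and 21.21 and 26.07 FPKM in KO mice (ratio 1.41). The ratio was larger for the α chains, whose total in KO mice is nearly all Lama5, the gene by which the set was chosen. Nothing is therefore read from this difference, nor from the levels of β relative to α chains given next. Lama5 is also longer than the β chain genes (11388 against 4867 to 5784 bases), and long transcripts were higher in KO mice as a class. For each unit of α chain FPKM there were 10.8 and 11.2 units of β chain FPKM in WT mice and 5.97 and 5.22 in KO mice. These are ratios of transcript levels and say nothing of the protein.

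**Figure D2:**
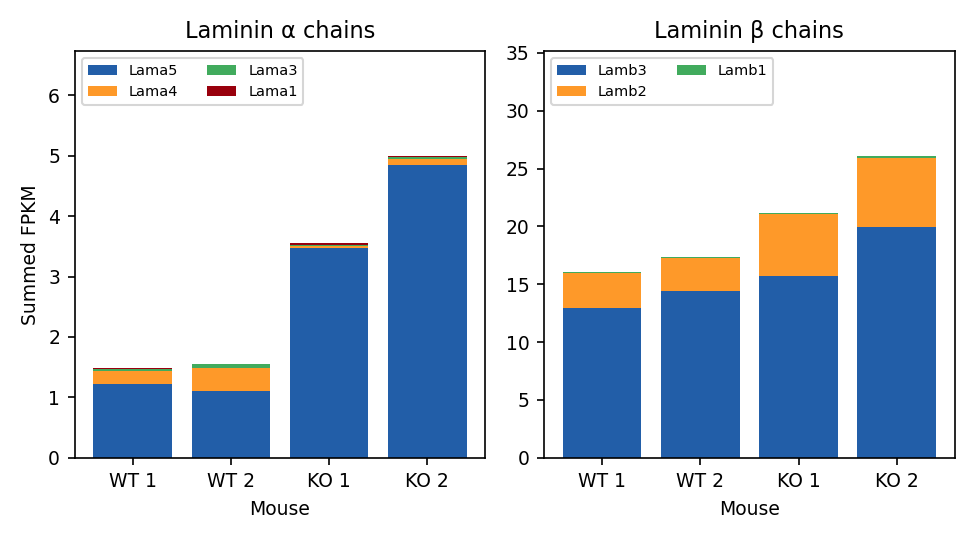
Summed FPKM of laminin α and β chain genes in each mouse, coloured by gene, with a separate axis for each kind of chain. The α total is 1.48 and 1.56 FPKM in the WT mice and 3.55 and 4.99 FPKM in the KO mice, and is nearly all Lama5 in the latter.

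Each of the 3 integrin genes was above each laminin gene in every mouse, and their log2 fold changes ran from 0.12 to 0.44, beside 0.37 to 1.47 for the 4 laminin genes tested. Itga6, the α6 subunit, was 91.65 and 84.01 FPKM in WT mice and 109.72 and 103.27 FPKM in KO mice, with a log2 fold change of 0.28 (standard error 0.08). Itgb4, its hemidesmosomal partner, was 24.26 and 20.32 FPKM in WT mice and 29.45 and 31.29 FPKM in KO mice, with a log2 fold change of 0.44 (standard error 0.11). In both genes the gap between the genotypes was wider than the gap between the mice of either one. Itgb1, the common partner of the laminin- and collagen-binding α subunits, was 56.30 and 55.97 FPKM in WT mice and 60.11 and 61.80 FPKM in KO mice, which is 0.12 on the log2 scale (standard error 0.07), the smallest of the 7. The ratio of Itga6 to Itgb4 was 3.78 and 4.13 in WT mice and 3.73 and 3.30 in KO mice.

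In both genotypes the order of levels from highest to lowest was Itga6, Itgb1, Itgb4, Lamb3, Lamc1, Lamb2, Lama5, Lamb1 and Lama3. No pair of neighbours in this order overlapped between the mice of a genotype, although Lamc1 and Lamb2 came close in KO mice (6.24 against 6.01 FPKM) and Lamb1 and Lama3 rested on 16 or fewer fragments each. In WT mice, mean levels spanned 87.8 FPKM for Itga6 to 1.16 FPKM for Lama5 among the 7 genes that passed the filter.

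All 7 genes had both KO values above both WT values, as did 25.6% of all genes tested, none had both below (31.0% of all genes), and their median log2 fold change was 0.44. Because these genes were taken up for this difference, nothing is read from that count. By log2 fold change Lama5 stood at place 36 among the 12621 genes tested, and for the same reason nothing is read from that place.

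Long transcripts were higher in KO mice as a class, and the laminin and integrin genes are long. The median log2 fold change went from -0.22 for 1098 genes with transcripts under 1000 bases to -0.03 for 4913 genes of 2000 to 4000 bases, 0.08 for 3285 genes of 4000 to 8000 bases and 0.21 for 580 genes of 8000 bases or more. Both KO values were above both WT values in 22.4%, 40.8% and 63.6% of the genes in the last 3 classes. Itgb1 (3815 bases) falls in the first of these, Lamb2, Lamb3, Lamc1, Itga6 and Itgb4 in the second and Lama5 in the third. Lama5 had the largest log2 fold change of the 580 genes there, but it was taken up for its high KO values, so nothing is read from that place. After each library was corrected for smooth dependence on the length and the GC content of transcripts, log2 fold changes were 1.06 for Lama5, 0.62 for Lamb2, 0.35 for Lamc1, 0.23 for Itga6, 0.22 for Lamb3, 0.18 for Itgb4 and 0.13 for Itgb1. All 7 stayed above 0, and their median fell from 0.44 to 0.23, beside a median of 0.01 over all genes in the same fit. The set was chosen by Lama5 in these same mice, so nothing is read from that count or from those medians.

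**Figure D3:**
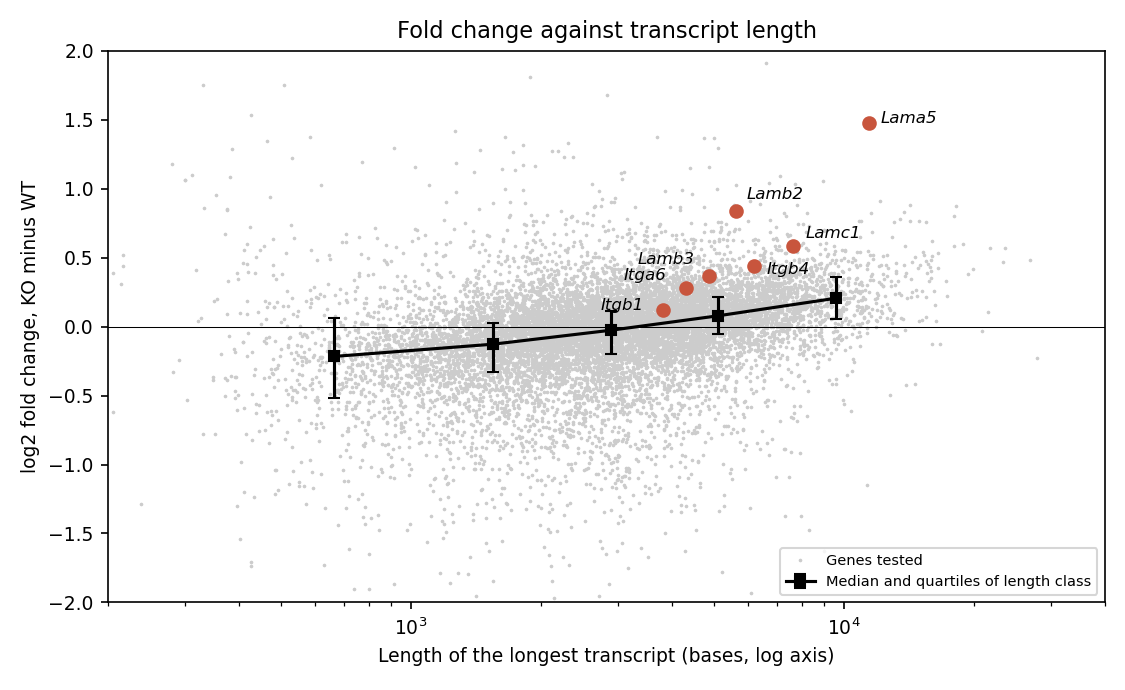
Log2 fold change (Lgr5-CREPT KO minus WT) against the length of the longest transcript in bases (log axis), with each gene tested as a grey point, the median and quartiles of 5 length classes in black and the 7 laminin and integrin genes in red. The class median climbs from -0.22 to 0.21, each red point lies above the median of its own class, and 283 of 12500 genes with a length fall outside the axes. The red genes were chosen by Lama5 in these same mice, so nothing is read from their place.

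Other genes of the same structures were counted from 7 lists of 101 genes in all, of which 98 were in the table and 58 passed the filter on low values. By limma's moderated test with adjustment over all genes, 4 of the 58 were higher and 0 lower at an adjusted p below 0.05 (background 0.412% higher and 2.67% lower), and 0 passed the limit on fold change in either direction (background 0.127% and 1.01%). At an unadjusted p below 0.05, 16 were higher and 4 lower (background 9.27% and 15.2%). Their median log2 fold change was 0.18, and 0.12 after the length and GC correction. The 4 were Hspg2, Agrn, Plec and Tns4, and with that correction none of the 58 passed an adjusted p of 0.05 (11 higher and 3 lower at an unadjusted p below 0.05).

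Of 25 basement membrane genes, 10 were tested, with 2 higher and 0 lower at an adjusted p below 0.05 and a median log2 fold change of 0.36. Hspg2, which encodes the heparan sulfate proteoglycan perlecan, was 9.54 and 8.69 FPKM in WT mice and 18.08 and 16.40 FPKM in KO mice, a difference of 0.88 on the log2 scale (limma's moderated test, adjusted p = 0.0333, and 0.0895 with the length and GC correction). Agrn, which encodes the laminin-binding proteoglycan agrin, was 16.39 and 13.52 FPKM in WT mice and 26.64 and 26.81 FPKM in KO mice, a difference of 0.82 on that scale (adjusted p = 0.0396, and 0.0836 with the correction). Their transcripts are 14187 and 7262 bases long. Pxdn, a peroxidase that crosslinks collagen IV, had the largest log2 fold change of this list, 1.91, but differed so much between the WT mice (2.81 and 0.06 FPKM) that its adjusted p was 0.252. Of the other structural components, Nid2 was 4.44 and 5.52 FPKM against 5.67 and 7.06 FPKM, whereas Nid1 and the collagen IV genes Col4a1 to Col4a5 were at 0.13 FPKM or below in every mouse.

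Plec, which encodes plectin, the plakin that ties integrin β4 to keratins, was 10.70 and 9.06 FPKM in WT mice and 16.23 and 17.76 FPKM in KO mice. Its log2 fold change of 0.76 had an adjusted p of 0.0473 from limma's moderated test, and became 0.26 with an adjusted p of 0.297 after the correction, its transcript being 15455 bases long. Dst, another plakin, differed by 0.47 on the same scale (adjusted p = 0.156). The hemidesmosome genes Col17a1, Krt5 and Krt14 were at 0.14 FPKM or below in every mouse.

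Of the 9 other laminin receptor genes, 8 were tested and 0 had an adjusted p below 0.05, with 2 higher and 1 lower at an unadjusted p below 0.05. Itga1, whose product pairs with β1 and binds collagen IV and laminin, was 6.12 and 5.33 FPKM in WT mice and 9.13 and 11.12 FPKM in KO mice (difference 0.77 on the log2 scale, limma's moderated test, adjusted p = 0.0608). Dag1, the dystroglycan gene, differed by 0.34 on the log2 scale (adjusted p = 0.0903), and Cd151, a tetraspanin that accompanies laminin-binding integrins, by -0.27 (adjusted p = 0.161). Itga3, which pairs with β1 to bind the same laminins as α6, overlapped between genotypes at 19.83 and 22.33 FPKM against 20.19 and 21.88 FPKM.

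**Figure D4:**
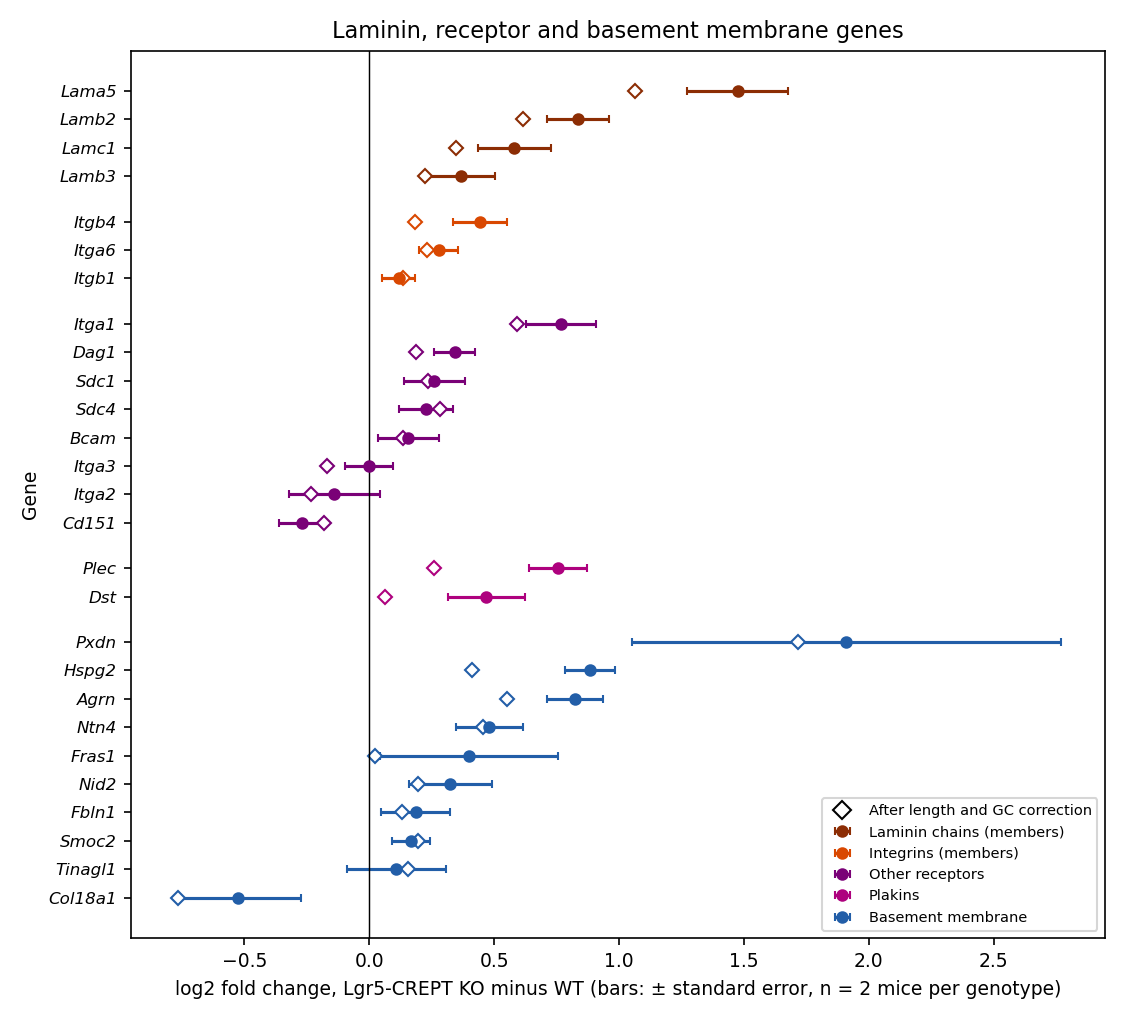
Log2 fold change (Lgr5-CREPT KO minus WT) with its moderated standard error from limma for the laminin, integrin, receptor, plakin and basement membrane genes tested, n = 2 mice per genotype, with open diamonds for the values after the length and GC correction. Lama5 moves from 1.47 to 1.06 with the correction and Plec from 0.76 to 0.26.

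Among the adaptors that join integrins to actin, 22 of 28 listed genes were tested, with a median log2 fold change of 0.15, and 1 was higher at an adjusted p below 0.05. This was Tns4, a tensin that binds the tail of integrin β1, which was 23.48 and 23.26 FPKM in WT mice and 33.22 and 34.27 FPKM in KO mice (difference 0.52 on the log2 scale, limma's moderated test, adjusted p = 0.0396, and 0.0628 with the correction). Tln2, a talin, and Tns3, another tensin, differed by 0.91 and 0.46 on the log2 scale (adjusted p = 0.0806 and 0.0967). Of 19 other integrin subunits 9 were tested, with a median of 0.02 and 0 at an adjusted p below 0.05 in either direction (0 higher and 2 lower at an unadjusted p below 0.05). The largest differences among them were -0.59 for Itga5, the fibronectin receptor subunit, -0.48 for the leukocyte subunit Itgam and 0.34 for Itgb7 (adjusted p = 0.202, 0.186 and 0.769). Of 10 proteases and inhibitors that act on the matrix, 6 were tested and 0 had an adjusted or an unadjusted p below 0.05. The largest log2 fold changes were -0.59 for Mmp7, 0.55 for Timp2 and 0.43 for Bmp1, a protease that trims laminin chains (adjusted p = 0.356, 0.256 and 0.218).

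Markers of other cells that make laminins were low. Of 9 fibroblast genes, 8 were below 0.5 FPKM in every mouse, and the list summed to 0.79 and 0.74 FPKM in WT mice and 1.60 and 1.64 FPKM in KO mice. Pdgfrb, the highest of them, was 0.33 and 0.43 FPKM in WT mice and 1.28 and 0.62 FPKM in KO mice. None was at 0 in all mice, but Col1a1, Col1a2 and Col3a1 did not exceed 0.10 FPKM. All 7 endothelial genes were below 0.5 FPKM in every mouse, summing to between 0.60 and 0.67 FPKM, and 5 of 6 smooth muscle genes were too (sum 1.17 and 1.39 against 0.46 and 0.93 FPKM). The 8 immune genes summed to 10.41 and 10.54 FPKM in WT mice and 5.39 and 13.17 FPKM in KO mice. The 10 enterocyte genes summed to 554.82 and 735.01 FPKM against 448.89 and 712.06 FPKM, so those genotypes overlapped. All 8 stem cell genes had both KO values above both WT values, as did 25.6% of all genes tested. Their median log2 fold change was 0.31. By limma's moderated test, 0 of 8 had an adjusted p below 0.05 and 5 were higher at an unadjusted one (background 0.412% and 9.27% higher). Lgr5, Axin2, Slc12a2 and Rgmb are 4260 to 6520 bases long, in a class where 40.8% of genes had both KO values above. Of 7 pan-epithelial genes 4 had a positive and 3 a negative log2 fold change. Their median was 0.03 and the lowest value -0.79 for Vil1 (limma's moderated test, adjusted p = 0.0689). All 9 goblet cell genes, a list added after their values were seen, had negative log2 fold changes, with a median of -0.94 and a summed level of 1478.14 and 2466.54 FPKM in WT mice and 813.96 and 943.88 FPKM in KO mice. Of these Spink4 fell, from 237.53 and 304.24 FPKM to 102.65 and 115.21 FPKM (adjusted p = 0.0333), while Agr2, Tff3 and Muc2 differed by -1.43, -1.18 and -0.86 on the log2 scale (adjusted p = 0.0577, 0.0823 and 0.150). The part of these in the laminin and integrin values was not tested, and in sorted bulk RNA a change in the mixture of cells and a change in RNA per cell cannot be told apart.

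By the distance between centred log2 profiles over the 4 mice, the 5 genes tested whose pattern was nearest to that of Lama5 were Col20a1 (distance 0.143), Clu (0.197), 1700008O03Rik (0.351), Mir103-2 (0.353) and Acta1 (0.355), where the median gene was at 1.54. Col20a1, a fibril-associated collagen, was 0.62 and 0.50 FPKM in WT mice and 1.96 and 2.54 FPKM in KO mice, and Clu, which encodes the secreted chaperone clusterin, 2.75 and 2.62 FPKM against 5.96 and 9.24 FPKM. Like Lama5, Col20a1, Clu, 1700008O03Rik and Acta1 were higher in the second KO mouse than in the first. They were picked for nearness to Lama5 over these same values, so nothing is read from that. Mir103-2 was listed at 0 in both WT mice and at 1.08 and 1.12 FPKM in the KO mice, which is about 1 fragment each. Of the laminin and integrin genes, Lamb2 was nearest at 0.669, place 41, followed by Lamc1 at 0.919, and Itgb1 was furthest at 1.39. With 4 points a profile holds little more than the difference between genotypes and the spread within each.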

How the data were processed

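RNA of sorted Lgr5-GFP-high cells from 2 mice of each genotype was sequenced by BGISEQ. The authors deposited 1 table of FPKM values, rounded to 2 decimals. By the study's methods, reads were mapped to GRCm38.p6 transcripts with Bowtie2 and quantified with RSEM, and the submitters' processing notes also name HISAT. The methods call genes with a test made for counts, so its threshold (0.05 on adjusted p, 1 on the size of the log2 difference) was put on limma's moderated test instead.

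A pseudocount of 0.5 was added before taking log2, a mean FPKM of 0.5 over the mice was required, and the fit was made in limma 3.58.1 (R 4.3.3) with an intensity trend and Benjamini-Hochberg adjustment over all 12621 genes tested. Samples were grouped by their titles. P-values and standard errors rest on a variance that combines the spread between these mice with that of other genes of similar level. An exact permutation test of 2 against 2 cannot fall below conventional thresholds, so tests rest on the variance shared across genes. The 9 genes and the lists were chosen with earlier results of these data known. Genes named are the 9, Rprd1b, list members with an adjusted p below 0.05 or among the 3 largest changes of a list, the 5 nearest profiles, and genes within 100 kb of Lama5. Epcam, Vil1, the stem cell and goblet cell genes, Itga3, Nid2, Dst and genes near 0 are outside this rule and were picked with their values in view.

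Depth was estimated by a line through the reciprocal of the most common FPKM value at each small RNA gene length, taken as 1 fragment; multiplying by transcript length gives the fragments per gene. Such numbers cover counting error only. Lengths, exons and GC content are those of the longest coding transcript in GENCODE M21, and positions and promoters those of RefSeq, both on GRCm38.p6. A length was found for 18162 of 18436 symbols. For the correction, a loess surface (span 0.3) of each library's deviation from the gene mean on log2 length and GC content was subtracted. A spreadsheet had turned 25 symbols into dates, and these were kept as written. Pseudocount, filter, scaling, trend, replicate block and each mouse left out were varied as well. Protein sequences were not used here, and 1 gene of the lists is counted but not reported here.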

Additional observations from a re-analysis of the deposited data

How the results depend on the processing

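Lama5 stayed higher in KO cells under each of the 13 alternatives run for it, but most of these could not have turned out otherwise. In all 7 genes both KO values lie above both WT values, so no pseudocount and no mouse left out could reverse a direction. Changing the filter, dropping the trend or adding the block leaves the fold change as it was. The log2 fold change of Lama5 was 1.74 with a pseudocount of 0.1, 1.24 with 1, 1.06 with the length and GC correction, and between 1.26 and 1.69 with each mouse left out. The other 6 genes also kept their direction under each, with lowest values of 0.62 (Lamb2), 0.35 (Lamc1), 0.20 (Lamb3), 0.18 (Itgb4), 0.21 (Itga6) and 0.10 (Itgb1). Calls varied between the alternatives. Of 128 lower and 16 higher genes, limma's moderated test gave 0 and 0 without the filter on low values (2250 and 1320 at an unadjusted p below 0.05), 4 and 0 without the intensity trend (1816 and 1105 at an unadjusted p), and 70 and 7 with the length and GC correction. With no limit on fold change it gave 337 and 52, and 4 higher pathway genes in place of 0. Leaving out any 1 mouse gave between 0 and 0 in both directions (1170 to 1615 lower and 633 to 954 higher at an unadjusted p), with 1 mouse of a genotype assumed to vary like the others. The 4 pathway genes with an adjusted p below 0.05 became 0 without the filter, without the trend, with the correction and with any mouse left out (0 to 0), and 5 with equal FPKM totals. Over all alternatives adjusted p ran from 0.0291 to 0.295 for Hspg2, 0.0345 to 0.295 for Agrn, 0.0409 to 0.297 for Plec, 0.0363 to 0.295 for Tns4 and 0.0227 to 0.295 for Rprd1b. With the replicate number as a block, 8 genes were higher in place of 16, 101 were lower, and 1 pathway gene stayed below 0.05. Same-numbered mice are different animals, and the sources used here do not state that the numbers pair them. They did not deviate together (r = -0.03 across genes), but with so few mice this cannot exclude a shared litter or day. The cause of the changes in calls was not tested.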

Other observations

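The chromosomal surroundings of Lama5 were looked at because Lama5 and the targeted gene Rprd1b lie on the same chromosome. The distance between them is about 2.21e+07 bases, so genes within 100 kb of Lama5 are far from Rprd1b. RefSeq lists 14 other genes within 100 kb of Lama5, of which 10 were in the table and 9 were tested. Log2 fold changes were positive in 2 of the 9, beside a median of -0.01 over all genes tested. The 9 include the microRNA genes Mir7005 and Mir3091, each listed at 0 in some mice. The protein-coding neighbours on either side were Adrm1, a proteasome ubiquitin receptor, at 62.85 and 69.84 FPKM in WT mice and 59.16 and 70.76 FPKM in KO mice (difference -0.03 on the log2 scale, limma's moderated test, adjusted p = 0.886), and Rps21, a ribosomal protein gene, at 1336.26 and 1371.07 FPKM against 1100.16 and 1006.96 FPKM (difference -0.36, adjusted p = 0.0896). Further out, Osbpl2, Mtg2 and Rbbp8nl differed by 0.14, -0.04 and 0.05 on that scale (adjusted p = 0.568, 0.842 and 0.873), and Cables2 and Gata5 of -0.45 and -0.31 (adjusted p = 0.0713 and 0.142). The microRNA gene Mir7005 lies on the same strand within intron 66 of Lama5 and was 1.65 and 1.63 FPKM in the WT mice and listed at 0 in both KO mice. The values in WT mice are those of about 1 fragment each. Its adjusted p of 0.0333 from limma's moderated test rests on these single fragments, so nothing is read from it. Mir3091 was above 0 in 1 mouse of each genotype, and Hrh3 was at 0.90 FPKM or below in every mouse.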
